A study of Arabidopsis thaliana with 18 samples.

Results

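A set of 17 transcripts of Arabidopsis thaliana rose at least 4-fold when seedlings lost their nitrogen supply and stayed close to the wild-type level when LBD37 or LBD38 was overexpressed. They were chosen by measured values, the group means of log2 signal of 22746 probe sets: nitrogen-depleted minus replete wild type of at least 2, and each overexpresser minus depleted wild type between −0.3 and 0.3, a band of 1.23-fold either way. Of all probe sets 222 (0.976%) met the first limit, and 17 of these met the second. The same values chose the set, so its rise and its closeness to wild type in the overexpressers are given as descriptions without a test.

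RNA of whole Col-0 seedlings, 9 days old, was hybridised to 18 Affymetrix arrays that form 6 groups of 3 biological replicates. The depleted groups (noN) were wild type, LBD37 overexpresser and LBD38 overexpresser, kept 7 days on full nutrition (FN, 4 mM KNO3) and then 2 days in a medium with no nitrogen added. The replete groups, on full nutrition throughout, were wild type and the T-DNA lines lbd37 and lbd38, mutated in LBD37 and in LBD38. The labels describe both sterile liquid culture and agar plates followed by liquid wells, and give neither the promoter that drives the overexpressers nor the number of lines. What the biological replicates repeated is not said either, so every p-value refers to the spread between these samples, which may be partly technical.

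Seedlings that run out of nitrogen dismantle proteins and plastids through autophagy and vacuolar proteolysis and move the released nitrogen to growing parts. The factors encoded by LBD37 and LBD38 belong to the plant-specific LOB domain family and are known to be induced by nitrogen and to repress genes of anthocyanin synthesis and of the nitrogen-limitation response. The rule uses the 12 arrays of replete wild type and the depleted groups. The mutants' own arrays are outside it.

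Of the 17 probe sets, 6 are paired with exactly 1 gene and 11 with none in the annotation used. The genes are GAMMA-VPE (AT4G32940) and BETA-VPE (AT1G62710), which encode vacuolar processing enzymes, AT3G49160, which encodes a protein of the pyruvate kinase family, and AT1G05340, AT1G19020 and AT3G45730. The other 11 are given by identifier, and the suffix of 258259_s_at marks probes that several transcripts can share. Neither LBD37 nor LBD38 was paired with a probe set, so the targeted genes gave no check of the labels.

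Array medians lay between 6.87 and 7.06, and replicates of a group correlated across probe sets at 0.988 or more. Replicate 3 of the LBD37 overexpresser stood apart, where the middle 50% of probe sets covered 2.89 log2 units, compared with 3.06 to 3.28 elsewhere. Without it 16 of the 17 probe sets stayed in the band, and 19 probe sets met the rule. Of the listed markers of seedling organs, 7 of 10 for leaf and 4 of 8 for root had a probe set with 1 gene. None was at 0, but the deposited data give every probe set a signal on every array. That does not show that the markers were detected. Of 7 leaf markers 6 fell and 1 rose with depletion (limma, adjusted p threshold 0.05), and their summed linear signal went from 22909 to 23546 in replete wild type to 14855 to 16165 in depleted wild type, 13497 to 19186 in the LBD37 and 16256 to 18709 in the LBD38 overexpresser. Of 4 root markers 3 rose and 1, PYK10, fell (median change 0.63). Their sum went from 6964 to 7291 in replete to 3971 to 4684 in depleted wild type. It was 3738 to 4014 and 3822 to 4250 in the LBD37 and LBD38 overexpressers. As 3 of the 4 rose, the fall of this sum is that of PYK10 alone and does not describe the other root markers. Against depleted wild type 2 leaf markers were higher in each overexpresser, and 2 root markers were lower with LBD37. Of all probe sets 50.2% were called in either direction with depletion, 18.5% in the LBD37 and 17.9% in the LBD38 overexpresser. In the mutants the sums were 23032 to 26064 (lbd37) and 23522 to 24770 (lbd38) for leaf and 6512 to 7041 and 6997 to 7917 for root markers. Whole seedlings do not separate fewer cells of a type from less RNA per cell, and the part of organ make-up in the values below was not tested.

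**Figure D1:**
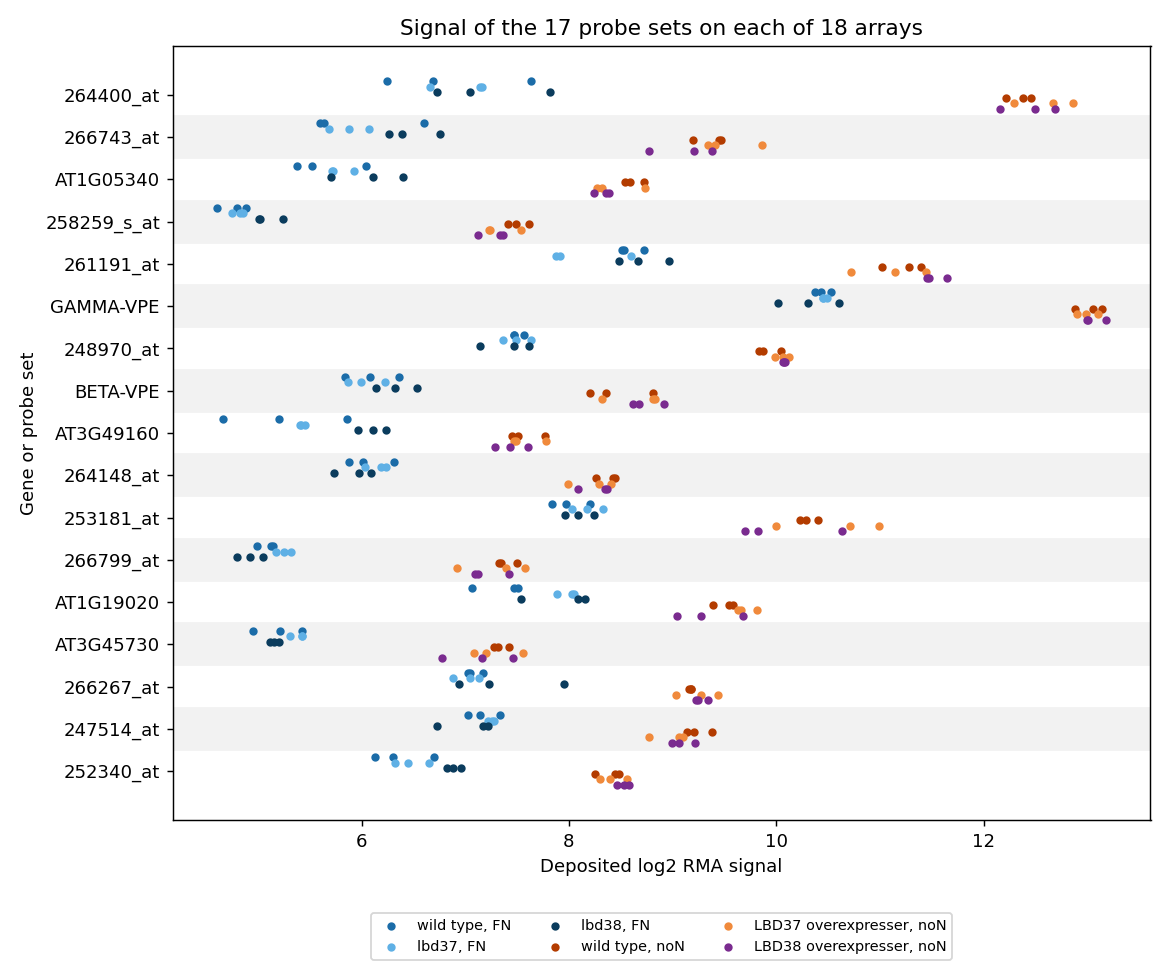
Deposited log2 RMA signal (x axis) of each of the 17 probe sets (rows, in order of their rise) on all 18 arrays, 1 point per array, coloured by group (FN, full nutrition; noN, no nitrogen added). In each row the 9 depleted arrays lie to the right of the 9 replete arrays. Both overexpresser means lie within 0.3 of depleted wild type by the rule, while single overexpresser points spread most for 253181_at (SD 0.51 in each line).

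Both vacuolar processing enzymes among the named members are cysteine proteases that mature and activate other vacuolar proteins by cutting after asparagine, and the gamma form is known from vegetative organs under stress and in senescence. GAMMA-VPE read 10.37, 10.43 and 10.52 in the 3 replete wild-type arrays and 13.15, 13.06 and 12.88 in the depleted ones. The depleted LBD37 overexpresser read 12.98, 13.1 and 12.9, and the LBD38 overexpresser 13.18, 12.99 and 13.01. All 9 depleted arrays therefore lay above all 9 replete arrays and the 3 depleted groups overlapped. The rise was 6.01-fold, or 2.59 ± 0.11 on the log2 scale (limma estimate ± SE, n = 3), and the overexpressers differed from wild type by −0.03 and 0.03. Taking the larger of the 2 differences, this was the member nearest to wild type.

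BETA-VPE, whose product is known for cutting storage proteins in seeds, read 6.37, 6.08 and 5.84 in replete and 8.81, 8.36 and 8.21 in depleted wild type. Its rise was 5.14-fold (2.36 ± 0.17, n = 3). In the overexpressers it read 8.81, 8.83 and 8.32 with LBD37 and 8.91, 8.62 and 8.68 with LBD38, differences of 0.19 and 0.28 from wild type that put it near the upper edge of the band. It was in the set in 8 of 12 repeats of the rule with 1 array left out, against 12 of 12 for GAMMA-VPE.

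The other 2 genes of the family, looked up after the members were known, were set beside them. ALPHA-VPE (AT2G25940), the second vegetative form, went from 6.03 ± 0.11 to 7.5 ± 0.14 (mean ± SD, n = 3), a rise of 2.77-fold (1.47, limma adjusted p = 1.18e-09) that falls short of the limit of the rule. It changed by −0.26 (adjusted p = 0.0822) and −0.09 (adjusted p = 0.655) in the LBD37 and LBD38 overexpressers. DELTA-VPE (AT3G20210), known from the seed coat, read 5.08 ± 0.06 and 4.89 ± 0.11 (difference −0.19, adjusted p = 0.0653). The rule chose the beta and gamma forms for their rise, and the alpha and delta forms are those whose rise fell short of its limit. No form of the family is therefore free of the rule. Of the alpha and delta forms 1 of 2 was called higher, and of all probe sets 23.5% were. These shares cannot be weighed against each other, because the same rise had already sorted the family.

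**Figure D2:**
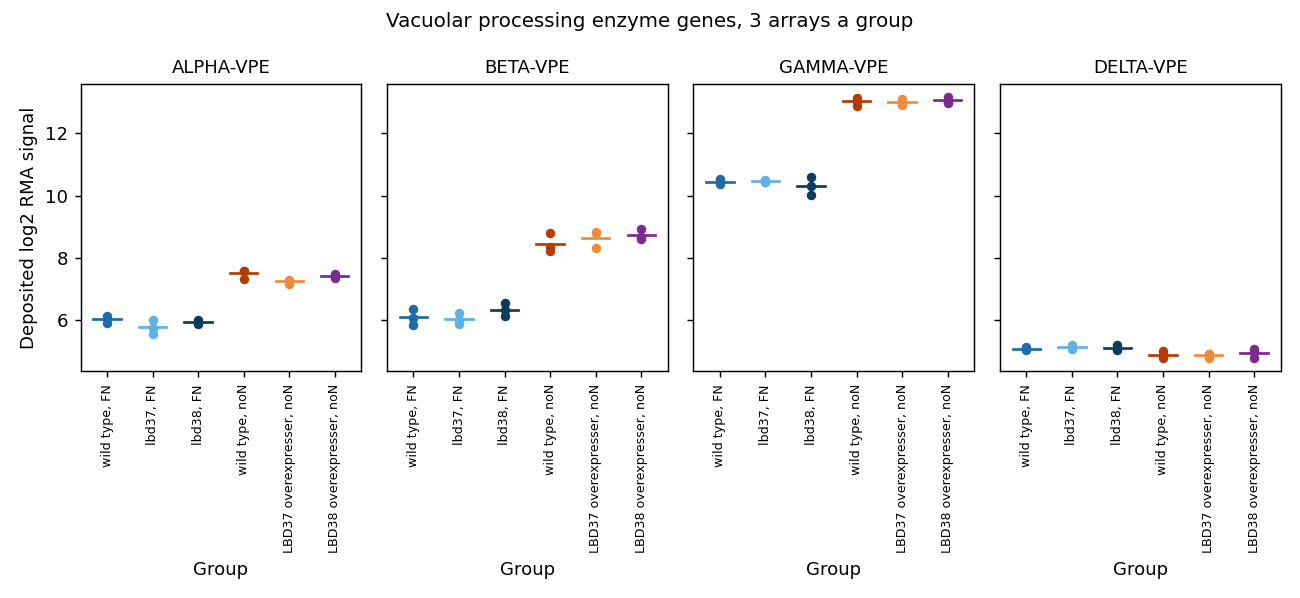
Log2 RMA signal (y axis) of the 4 vacuolar processing enzyme genes in each group (x axis), with 1 point per array and a bar at the mean of 3 arrays. ALPHA-VPE, BETA-VPE and GAMMA-VPE are higher in all 3 depleted groups than in the 3 replete groups, and DELTA-VPE stays between 4.87 and 5.14 on average.

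AT3G49160 read 4.67, 5.86 and 5.2 in replete wild type, the widest spread of any named member there (SD 0.59). Depleted wild type read 7.51, 7.77 and 7.45, a 5.04-fold rise (2.33 ± 0.19, n = 3). The LBD37 overexpresser read 7.49, 7.78 and 7.47 and the LBD38 overexpresser 7.29, 7.43 and 7.61, so the depleted groups overlapped.

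AT1G05340, which encodes a short cysteine-rich transmembrane protein, had the largest rise of the 6 named genes, 7.83-fold (2.97 ± 0.17, n = 3). It went from 5.38, 5.52 and 6.04 to 8.72, 8.55 and 8.58 in wild type. The overexpressers read 8.32, 8.74 and 8.27 (LBD37) and 8.39, 8.36 and 8.24 (LBD38). The LBD38 arrays all lay below the wild-type ones, with a difference of −0.29 just inside the band.

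AT1G19020 rose 4.46-fold (2.16 ± 0.16, n = 3), from 7.06, 7.51 and 7.47 to 9.55, 9.39 and 9.58. It read 9.81, 9.63 and 9.66 with LBD37 and 9.27, 9.68 and 9.05 with LBD38. The LBD37 arrays all lay above wild type by a small margin and the LBD38 arrays lay on both sides of it.

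AT3G45730 rose 4.41-fold (2.14 ± 0.15, n = 3), from 4.95, 5.42 and 5.21 to 7.31, 7.42 and 7.27, with 7.2, 7.08 and 7.55 in the LBD37 and 7.16, 7.46 and 6.78 in the LBD38 overexpresser. The last value, from replicate 3, was the lowest of the 9 depleted arrays and still stood above the highest replete array.

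Among the 11 probe sets without a listed gene, 264400_at had the largest rise of all 17, 45.2-fold (5.5 ± 0.29, n = 3). It read 7.63, 6.68 and 6.24 in replete and 12.38, 12.22 and 12.46 in depleted wild type, and 12.67, 12.3 and 12.86 (LBD37) and 12.5, 12.69 and 12.15 (LBD38) in the overexpressers. Its replete arrays were spread over more than 1 log2 unit while the depleted ones stayed together. The replete mutants read 7.15, 6.66 and 7.16 (lbd37) and 7.05, 6.73 and 7.82 (lbd38), within or just above the range of wild type.

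The second largest rise was that of 266743_at, 10.8-fold (3.43 ± 0.22, n = 3), from 6.6, 5.6 and 5.63 to 9.47, 9.45 and 9.2. It read 9.41, 9.86 and 9.34 with LBD37 and 9.2, 8.78 and 9.38 with LBD38. Its overexpresser means lay on opposite sides of wild type, at 0.17 and −0.25. Next, 258259_s_at rose 6.69-fold from 4.8, 4.89 and 4.61 to 7.62, 7.41 and 7.49. With LBD37 it read 7.23, 7.23 and 7.54 and with LBD38 7.34, 7.37 and 7.12, the second group lying wholly below wild type.

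The rise of 261191_at was 6.23-fold, from 8.72, 8.53 and 8.51 to 11.4, 11.28 and 11.02. It read 11.15, 11.44 and 10.72 with LBD37 and 11.45, 11.48 and 11.65 with LBD38. All 3 LBD38 arrays lay above wild type, which is how this probe set came to sit at the upper edge of the band.

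The rises of the remaining 7 were smaller, at 5.35-fold for 248970_at, 4.96-fold for 264148_at, 4.93-fold for 253181_at, 4.92-fold for 266799_at, 4.25-fold for 266267_at, 4.21-fold for 247514_at and 4.05-fold for 252340_at. Depleted wild type was the most even for 266267_at, at 9.18, 9.16 and 9.18 against 7.05, 7.03 and 7.17 in replete wild type. All 3 LBD38 arrays of 266267_at lay above it, at 9.34, 9.25 and 9.22. With 247514_at the LBD37 arrays, at 9.06, 9.1 and 8.77, lay below all of depleted wild type at 9.38, 9.21 and 9.13.

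The signal of 248970_at was as even as that of GAMMA-VPE, with 7.47, 7.47 and 7.56 in replete wild type, 9.87, 10.04 and 9.84 in depleted wild type, and 10.06, 10.12 and 9.99 and 10.08, 10.07 and 10.08 in the overexpressers. By contrast 253181_at varied most in the overexpressers, at 10.72, 10 and 10.99 with LBD37 and 9.7, 10.64 and 9.82 with LBD38, around 10.28, 10.23 and 10.41 in wild type. Its place in the band rests on means of arrays that lay on both sides of wild type.

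Over the 17 the rise had a median of 2.33 on the log2 scale (range 2.02 to 5.5) with standard errors of 0.10 to 0.29, and the median change of all 22746 probe sets was −0.07. All 17 had every one of the 9 depleted arrays above every one of the 9 replete arrays, an order that the rule largely fixes and that 11.2% of all probe sets had. Between depleted and replete wild type 23.5% of all probe sets were called higher by limma. Mean signals of the 17 in replete wild type spanned 4.76 to 10.44. In 4 of them (258259_s_at, AT3G49160, 266799_at and AT3G45730) the replete mean lay under the arrays' mean lower quartile of 5.29, and in depleted wild type all 17 lay above the median.

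The overexpresser differences were then described within the band. Against depleted wild type the LBD37 overexpresser differed by −0.26 to 0.26 (median 0.00) and the LBD38 overexpresser by −0.29 to 0.3 (median −0.14). Both lines were higher than wild type at 5 probe sets and lower at 6, and at the other 6 they lay on opposite sides. The lines share their wild-type arrays. None of the 17 was called in either line, and 18.5% (LBD37) and 17.9% (LBD38) of all probe sets were. Groups did not overlap with wild type at 2 of the 17 for LBD37 (31.5% of all probe sets) and at 5 of the 17 for LBD38 (35.5%). The rule sets these counts. A mean inside the band does not show an absence of response. The 95% limma intervals stayed within −1 to 1 for all 17 in both lines, but within −0.5 to 0.5 for 9 of 17 with LBD37 and 8 of 17 with LBD38. The members within the narrower range in both lines were GAMMA-VPE, 248970_at, 258259_s_at, 264148_at, 266799_at, 266267_at and 252340_at. Both limits were negative for 258259_s_at with LBD38 (−0.447 to −0.013) and for 247514_at with LBD37 (−0.522 to −0.003). The widest intervals were those of 264400_at, −0.35 to 0.86 with LBD37 and −0.51 to 0.7 with LBD38.

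Which probe sets fell inside the band depended on single arrays. With 1 of the 12 arrays of the rule left out, 11 to 19 probe sets met it, the fewest without replicate 2 of the LBD38 overexpresser. The 7 kept in all 12 repeats were 258259_s_at, GAMMA-VPE, 248970_at, AT3G49160, 264148_at, 266799_at and 266267_at.

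Just inside the band lay 261191_at (LBD38 difference 0.3), AT1G05340 (−0.29) and BETA-VPE (0.28). Just outside it lay 245348_at, 256818_at and AT2G17710, whose LBD37 differences were −0.31, −0.32 and −0.32, and AT1G80130, which rose 35.3-fold and was at −0.32 and −0.22. ALN (AT4G04955), the allantoinase that opens the ring of allantoin when purines are broken down for their nitrogen, rose 4.77-fold and was at 0.11 and 0.4. Just under the limit on the rise were 246302_at (3.97-fold), 259297_at (3.95-fold) and MGL (3.74-fold), a methionine gamma-lyase.

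Of the other 205 probe sets with a rise of at least 4-fold, 185 were more than 0.3 lower than wild type in both overexpressers, 96 of them at least 1 lower, and 3 were more than 0.3 higher in both. The median differences of the 205 were −1.01 (LBD37) and −1.17 (LBD38), and those of all probe sets were 0.01 in both lines. The share of all probe sets at these limits was not counted. The limit on the rise favours high values in depleted wild type, so lower values in the overexpressers are partly built in.

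**Figure D3:**
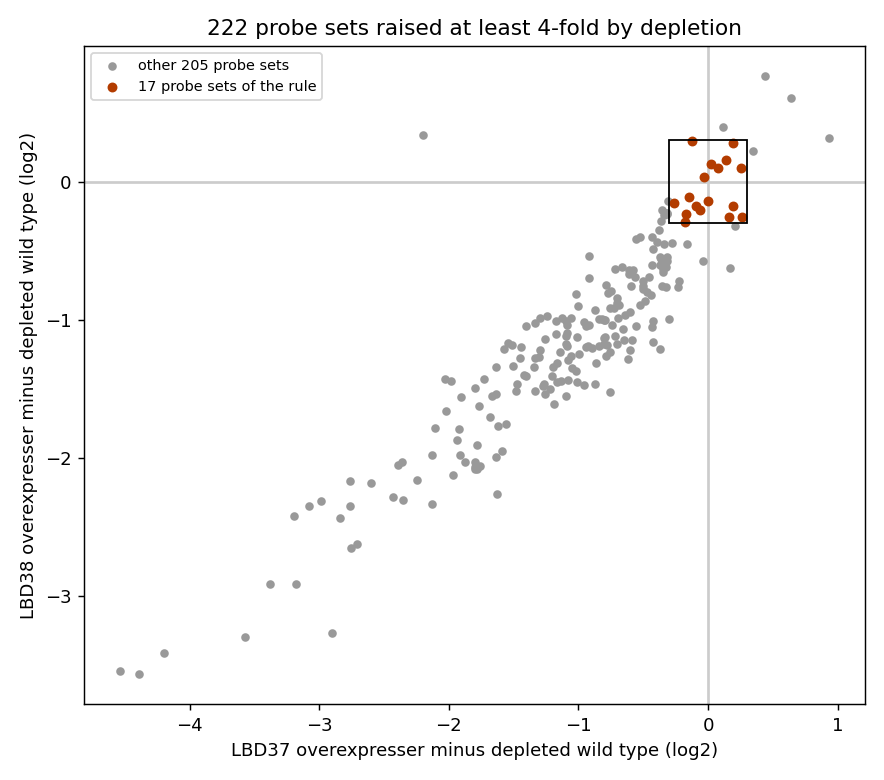
Difference of the LBD37 (x axis) and LBD38 (y axis) overexpresser from depleted wild type, in log2 units of group means, for the 222 probe sets with a rise of at least 4-fold. The box marks the band of −0.3 to 0.3 with the 17 members, most of the other 205 lie below and to the left of it, and both axes share the wild-type arrays.

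The genes beside the named members were looked up as well. In the gene order of the TAIR10.1 assembly the gene after GAMMA-VPE is AT4G32950, which went from 7.04 ± 0.13 to 11.11 ± 0.30 in wild type (mean ± SD, n = 3; 4.07 on the log2 scale, limma adjusted p = 2.66e-12). It was lower in both overexpressers, at −1.41 (adjusted p = 6.84e-06) with LBD37 and −1.04 (adjusted p = 0.000134) with LBD38, whereas GAMMA-VPE was at −0.03 and 0.03. The difference between the neighbours was not tested. On the other side AT4G32930 changed by 0.3 with depletion (adjusted p = 0.00367) and by −0.37 and −0.34 in the overexpressers (adjusted p = 0.00291 and 0.00518). Of the 12 protein-coding neighbours of the 6 named genes, 8 had a probe set, and AT4G32950 was the one that also rose at least 4-fold. Of the 9 probe sets of these 8 genes, depletion called 2 higher and 2 lower (limma), against 50.2% of all probe sets called in either direction. The lower ones were AT3G45740 beside AT3G45730 (−0.44, adjusted p = 0.00191) and AT1G19010 beside AT1G19020 (−0.26, adjusted p = 0.0144). The neighbours of AT1G05340, AT1G05330 and AT1G05350, changed by −0.03 and −0.04 with depletion.

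Related responses were looked at in 13 gene lists, of whose 166 genes 46 were measured by a probe set with 1 gene. None of the 46 was among the 17. Depletion called 39 of them, 29 higher and 10 lower (limma), against 50.2% of all probe sets called in either direction. Their overexpresser counts can be set against the same shares of all probe sets as above.

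All 9 genes of the ATG8 family, the ubiquitin-like proteins that build autophagosomes which end in the vacuole, rose with depletion (median 1.2). With LBD37 6 of the 9 fell (median −0.43) and with LBD38 3 of the 9 (median −0.23). ATG8B rose 4.38-fold, enough for the first limit, but was at −0.43 and −0.4 in the overexpressers. The 3 measured senescence genes rose as well, with 1 and 2 of them lower in the LBD37 and LBD38 overexpressers.

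Of 8 measured genes for nitrogen remobilization 4 rose and 2 fell with depletion. In the overexpressers 1 rose and 1 fell with LBD37, and 2 rose and 1 fell with LBD38. Those higher in the LBD38 overexpresser were ALN and AAH (AT4G20070), the allantoate amidohydrolase that acts after it, at 0.4 (adjusted p = 0.0209) and 0.66 (adjusted p = 0.000648). The one that fell in both lines was PPDK, the pyruvate orthophosphate dikinase, at −0.9 and −1.01.

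All 5 anthocyanin genes rose, and 5 (LBD37) and 4 (LBD38) of them were lower in the overexpressers. The glutathione transferase gene GSTU25, the 1 measured of its list, rose 5.19-fold and was at −0.66 and −0.62, and the nitrate transporter NRT2.5, the 1 measured of 12 listed uptake genes, was at 3.9 with depletion and −2.9 and −3.26 in the overexpressers. Of 3 sugar and starch genes 1 rose and 1 fell with depletion, and 1 fell in each overexpresser. Of 3 abscisic acid genes 1 rose with depletion, and of 2 sulfur starvation genes none was called there and 1 fell in each overexpresser. The salicylate and phosphate lists had no measured gene. No list gene was called in either mutant.

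The mutants were the comparison that the rule did not use. They ask whether loss of LBD37 or LBD38 under full nutrition moves the 17 transcripts. Replete wild type also enters the rule, which favours low values in it, so a lean toward higher values in a mutant is partly built in. In lbd38 2 of 17 were called higher and none lower, against 0.589% of all probe sets called higher (limma) and 1.19% in either direction. In lbd37 none was called, against 0.189% in either direction. At an unadjusted p under 0.05 the counts were 6 of 17, all higher, in lbd38, against 11.7% of all probe sets in either direction. In lbd37 they were 2 of 17, 1 higher and 1 lower, against 7.42% of all probe sets.

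AT3G49160 was 1.82-fold higher in lbd38 (0.86 ± 0.19 on the log2 scale, limma adjusted p = 0.0327). Its 3 arrays read 6.11, 5.97 and 6.23 and lay above all 3 of wild type at 4.67, 5.86 and 5.2. In lbd37 it read 5.42, 5.4 and 5.46, within the range of wild type, a difference of 0.18 (adjusted p = 0.901). Without wild-type replicate 1, the lowest, the difference was 0.57 (adjusted p = 0.161). It also missed the threshold without wild-type replicate 3 (adjusted p = 0.0793) and without lbd38 replicate 1, 2 or 3 (adjusted p = 0.116, 0.0532 and 0.156).

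The unnamed 252340_at was 1.42-fold higher in lbd38 (0.51 ± 0.12, adjusted p = 0.0449), at 6.96, 6.82 and 6.88 against 6.13, 6.3 and 6.69 in wild type. The groups did not overlap. With the replicate number as a block its adjusted p was 0.0522. Without wild-type replicate 1 or 2 the difference was 0.39 (adjusted p = 0.255) or 0.47 (adjusted p = 0.157), and without lbd38 replicate 1, 2 or 3 the adjusted p was 0.186, 0.0751 or 0.148. It also missed the threshold in 6 of the 9 repeats that left out an array of a depleted group (highest adjusted p = 0.06) and without lbd37 replicate 1 (adjusted p = 0.0659). A fit of the compared groups alone called neither probe set (adjusted p = 0.133 for AT3G49160 and 0.107 for 252340_at).

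AT1G19020 was the member whose arrays stood above wild type in both mutants. It read 8.05, 7.89 and 8.03 in lbd37 and 8.09, 7.53 and 8.16 in lbd38, against 7.06, 7.51 and 7.47. The differences of 0.64 ± 0.16 (adjusted p = 0.167) and 0.58 ± 0.16 (adjusted p = 0.102) did not pass, although without lbd38 replicate 2 the second was 0.77 (adjusted p = 0.0199). The lbd37 arrays lay above all wild-type arrays at 2 of the 17 probe sets and the lbd38 arrays at 4, and the shares of all probe sets were 5.64% and 6.32%.

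Among the others 258259_s_at was also wholly above wild type in lbd38, at 5.02, 5.01 and 5.24 against 4.8, 4.89 and 4.61 (0.33 ± 0.10, limma adjusted p = 0.165). AT1G05340 read 6.4, 5.7 and 6.11 in lbd38 against 5.38, 5.52 and 6.04 (0.42 ± 0.17, adjusted p = 0.315), with overlap. In lbd38 266743_at was at 0.53 ± 0.22 (adjusted p = 0.35), and without wild-type replicate 1 at 0.85 (adjusted p = 0.0464). In lbd37 the lowest difference was that of 261191_at, −0.46 ± 0.19 (adjusted p = 0.598), at 7.88, 8.6 and 7.92 against 8.72, 8.53 and 8.51. With all arrays none of these passed the threshold.

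The vacuolar processing enzymes were not called in either mutant. GAMMA-VPE read 10.46, 10.45 and 10.49 in lbd37 and 10.6, 10.31 and 10.02 in lbd38, with 95% intervals of −0.22 to 0.26 and −0.37 to 0.11. BETA-VPE read 5.87, 5.99 and 6.22 and 6.54, 6.14 and 6.33, with intervals of −0.43 to 0.29 and −0.12 to 0.59. Changes of 2-fold lay outside all 4 intervals.

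**Figure D4:**
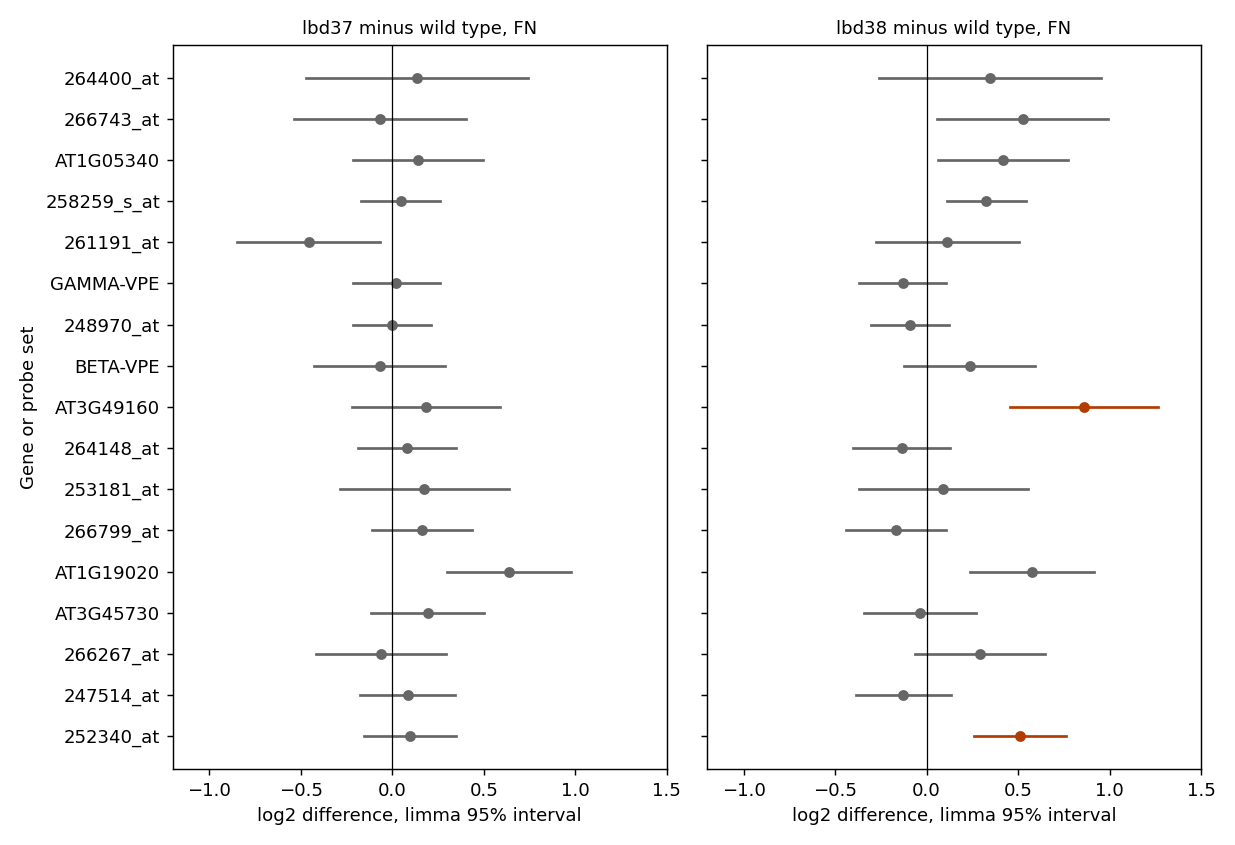
Log2 difference from replete wild type (x axis) in lbd37 (left) and lbd38 (right) for the 17 probe sets (rows), with limma 95% intervals. The orange intervals mark AT3G49160 and 252340_at in lbd38, which passed the adjusted p threshold of 0.05, and no interval in lbd37 is orange.

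Across the 17 the median difference was 0.09 in lbd37 and 0.24 in lbd38, while over all probe sets it was −0.02 and −0.04. The other 205 strongly induced probe sets, which share the favoured low values in wild type, had medians of 0.16 and 0.24, with 4 (1.95%) and 18 (8.78%) called in either direction. No test of the 17 against these was made. The widest interval limit in lbd38 was 1.27, for AT3G49160, and in lbd37 all 17 intervals lay within −1 to 1.

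The mutants were last set against each other. Their means share no array with the rule, but the main fit takes its spread from all 18 arrays, including those of the rule. Of the fits given here, the one of the mutants' arrays alone uses no array of the rule. None of the 17 was called (limma, lowest adjusted p = 0.0727), against 2.6% of all probe sets. An unadjusted p under 0.05 was found for 7 of 17, against 12.7% of all probe sets. Of these 7, 6 were lower in lbd37, among them AT3G49160 (−0.68 ± 0.19), 266743_at (−0.59 ± 0.22), 261191_at (−0.57 ± 0.19) and 252340_at (−0.41 ± 0.12). At 6 of the 17 the mutants' arrays did not overlap, against 24.3% of all probe sets. The count of calls depended on the fit. With array weights 6 of the 17 passed, as did 8.27% of all probe sets, and with the mutants' arrays alone 4 of the 17 and 5.45% of all probe sets. All probe sets thus gained calls in these fits too. AT3G49160, 252340_at, 266743_at and 266799_at passed in both. AT3G49160 also passed without wild-type replicate 1 or 2 (adjusted p = 0.0125 and 0.00817), 252340_at without wild-type replicate 3 (adjusted p = 0.0284) and 261191_at without lbd37 replicate 2 (adjusted p = 0.0242).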

How the data were processed

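The deposited table holds the authors' log2 signal of each probe set on each array, summarised by RMA (per the submitters' processing notes, version not given in the sources used here). Array images were not used here. All 18 columns were matched to samples by identifier. Of 22810 probe sets 64 controls were left out. Genes came from the platform's probe table, with symbols and gene order of the TAIR10.1 assembly; 13513 probe sets list 1 gene, 503 several and 8730 none.

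limma 3.58.1 in R 4.3.3 (lmFit, eBayes without trend) was fitted to all 18 arrays with 6 group means (12 residual degrees of freedom, prior 5.89), two-sided, adjusted by Benjamini-Hochberg over 22746 probe sets. The script was tested on simulated data. The precision is limited by 3 arrays a group. Members and gene lists were chosen with earlier results of these data known; the VPE family and the neighbours were added after the members' values were seen. All 6 members with 1 gene are named, as are members called in a mutant, those nearest the limits, and list genes with the largest changes. The other members given by identifier were singled out after their values were seen. Planned promoter motifs were not analysed here.

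Alternatives were the replicate number as a block, a second quantile normalization, arrays centred on their medians, a filter on the dimmest 40% of probe sets, a fit of the compared groups alone, eBayes with trend and robust, array weights, other limits of the rule, and leaving out each array. Same-numbered replicates deviated together at r over 0.1 in 15 of 45 pairs (−0.25 to 0.26), so the numbers were not taken to pair samples.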

Additional observations from a re-analysis of the deposited data

Results flagged for a closer look

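The mutant arrays of 266799_at lay on opposite sides of the wild-type mean, although neither mutant passed the test against wild type (0.16, limma adjusted p = 0.868 in lbd37, and −0.16, adjusted p = 0.695 in lbd38) and the lbd38 arrays overlapped those of wild type. Its lbd37 arrays read 5.32, 5.25 and 5.18 and its lbd38 arrays 5.05, 4.8 and 4.92, so that all 3 of the first lay above the wild-type mean of 5.09 and all 3 of the second below it. The lbd37 minus lbd38 difference was 0.33 ± 0.13 (limma adjusted p = 0.261, estimate ± SE, n = 3), which did not pass over all probe sets in the main fit. It passed with array weights and with the mutants' arrays alone (lowest limma adjusted p = 0.017), fits in which 8.27% and 5.45% of all probe sets passed. All these values are near or below the lower quartile of the arrays, and the part of dim signal in the difference was not tested.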

How the results depend on the processing

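With 3 arrays a group, calls near the threshold moved easily. No member was called in lbd37 under any of the 25 alternatives. In lbd38 the 2 calls became 1 with the replicate block (AT3G49160) and 0 with only the compared groups, and 0 to 2 with 1 array left out. The filter on dim probe sets left 14 members to test. Between the mutants the count of 0 became 6 with array weights, 4 with only the compared groups, and 0 to 1 with 1 array left out; the cause was not tested. The rule found 17 probe sets, 20 and 19 after repeated quantile normalization and centring (14 shared each), and 11 to 19 with 1 array left out. By construction it found 52 with a rise of at least 1.5, 6 with at least 2.5, 8 with a band of 0.2 and 28 with a band of 0.4. Of the list genes 39 were called with depletion under the block and both scalings, and 37 of 42 without the dim probe sets. No called member changed sign.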
